A study of Mus musculus with 6 samples.

Results

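Transcripts of the mitochondrial ribosomal protein genes were measured in thymocytes of 3 mice lacking Klf4 in T cells and 3 control mice. Members were all genes of the array whose platform symbol starts with Mrpl or Mrps followed by a digit, pseudogenes left out, which gave 76 of the 16593 gene symbols on the array. Of these, 47 carry a large-subunit symbol (Mrpl) and 29 a small-subunit symbol (Mrps). Each gene was read from 1 probe, the one with the highest mean over the 6 arrays. The 76 genes had 110 probes in all, and 71 genes (43 large, 28 small) passed the filter on dim probes described further on.

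Both genotypes were C57/BL6 mice aged 8 to 10 weeks with Klf4 floxed on both alleles (Klf4fl/fl). Knockout mice also carried CD4-Cre, a Cre recombinase driven by the Cd4 promoter, which acts from the double-positive (DP) stage onward, so earlier thymocytes keep the gene. Control mice lacked the Cre transgene. Cells were fresh DP and CD4 single-positive (SP4) thymocytes, enriched on CD4 with a kit from either of 2 makers, and the labels do not say which mouse had which kit. RNA of each mouse went to its own Illumina MouseRef-8 v2 bead array. The series title asks how KLF4, a zinc-finger transcription factor, regulates T cell function, and the comparison here asks whether transcripts of the mitochondrial ribosome differ without it. These are bulk samples, in which fewer cells of a type and less RNA per cell cannot be told apart.

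The mitochondrial ribosome translates the respiratory chain proteins that the mitochondrial genome encodes. Its RNAs come from that genome, but all of its proteins are encoded in the nucleus, made in the cytosol and imported. Part of them descend from bacterial ribosomal proteins and the rest are found on the mitochondrial ribosome only. Growing and activated T cells build up mitochondrial translation capacity, while most DP thymocytes are small, non-dividing cells. NRF1, the ETS-family factor GABP and YY1 are known regulators of nuclear genes for mitochondrial proteins, and KLF factors bind CACCC-type sequences.

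Promoter sequence was available for 67 of the 76 genes as windows from 250 bases before to 50 bases after the annotated start (RefSeq, build GRCm38.p6). Both strands were searched for CCACNCCC (KLF family), CCGGAAG (ETS family), GCATGCGC (NRF1) and AAGATGGC (YY1). Windows of 4 members are shown. Mrps23 had the largest difference between genotypes, and Mrpl28 the smallest p among members above 0. Mrpl33 and Mrps27 were chosen after the matches were seen because they hold most kinds of motif. Capitals mark matches on either strand, and no matches overlap in these 4 windows. The windows are chr11:88204138-88204437 for Mrps23, chr17:26123253-26123552 for Mrpl28, chr5:31613701-31614000 for Mrpl33 and chr13:99344536-99344835 for Mrps27, all on the plus strand.
Mrps23: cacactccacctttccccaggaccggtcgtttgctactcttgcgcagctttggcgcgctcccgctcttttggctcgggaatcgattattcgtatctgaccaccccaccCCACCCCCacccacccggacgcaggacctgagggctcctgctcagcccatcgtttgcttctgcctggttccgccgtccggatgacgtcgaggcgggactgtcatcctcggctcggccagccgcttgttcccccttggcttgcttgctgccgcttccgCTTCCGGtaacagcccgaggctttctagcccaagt
Mrpl28: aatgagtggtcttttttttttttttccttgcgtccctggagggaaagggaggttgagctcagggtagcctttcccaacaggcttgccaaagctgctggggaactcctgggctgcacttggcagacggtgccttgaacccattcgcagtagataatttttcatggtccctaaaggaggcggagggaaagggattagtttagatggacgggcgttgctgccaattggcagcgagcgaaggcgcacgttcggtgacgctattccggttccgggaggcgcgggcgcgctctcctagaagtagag
Mrpl33: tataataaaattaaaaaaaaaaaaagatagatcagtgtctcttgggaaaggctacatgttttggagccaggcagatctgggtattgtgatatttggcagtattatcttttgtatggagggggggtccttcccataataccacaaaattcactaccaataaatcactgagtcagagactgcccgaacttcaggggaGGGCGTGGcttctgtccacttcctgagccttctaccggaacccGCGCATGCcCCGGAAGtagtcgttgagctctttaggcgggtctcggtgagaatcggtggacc
Mrps27: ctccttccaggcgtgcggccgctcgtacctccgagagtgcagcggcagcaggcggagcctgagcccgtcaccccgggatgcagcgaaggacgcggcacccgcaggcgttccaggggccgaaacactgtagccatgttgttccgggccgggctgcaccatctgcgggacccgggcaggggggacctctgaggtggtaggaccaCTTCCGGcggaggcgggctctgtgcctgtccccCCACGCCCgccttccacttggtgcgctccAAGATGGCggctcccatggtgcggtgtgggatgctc

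Mrps23 held a KLF and an ETS match, Mrpl28 none of the 4 motifs, Mrpl33 a KLF, an NRF1 and an ETS match, and Mrps27 a KLF, an ETS and a YY1 match. Mrpl33 and Mrps27 differed by only -0.042 and -0.016 z units between genotypes. Among other members with lower scores in knockouts, Mrps6 (-0.179) and Mrpl14 (-0.116) held no motif and Mrpl57 (-0.131) an ETS match only. Mrps18a (-0.106) held an ETS and a YY1 match, and Mrpl15 (-0.137) had no window. The KLF-type sequence was in the window of 16 of 67 members (23.9%), against 25.7% of 8467 tested genes with a window and 17.6% of all 32851 windows. Those 16 genes had a median genotype difference of -0.019 z units and the 47 tested members without it -0.005. The ETS sequence was in 26 members (38.8%, against 18.8% of tested genes and 8.86% of all windows), with medians of -0.016 with it and -0.004 without. The YY1 sequence was in 12 members (17.9%, 5.07% and 2.75%) and the NRF1 sequence in 8 (11.9%, 5.55% and 2.71%). Medians were -0.007 with and without the YY1 sequence, and -0.031 with and -0.004 without the NRF1 sequence. No motif was found in 23 members. A match describes the letters of the window and shows neither binding nor its absence.

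All levels are in z units. A z unit is the SD of the scores of 1 whole deposited array, whose mean is 0. Whether logarithms were taken before this standardisation is unknown, so no fold changes are given, and equal z differences at weak and strong probes may stand for unequal changes. Scores were quantile normalised between arrays, the 10279 probes with the lowest means were left out as dim, and 15418 probes were tested. Arrays correlated pairwise between 0.992 and 0.9963 across probes. Control 3 and knockout 1 stood apart on the second principal component (25.5% of the variance), at 7.82 and 4.92, with the other 4 mice between -4.09 and -2.12. Their array weights by limma were 0.677 and 0.655 against 0.93 to 1.505. On the first component (30.2%) the same 2 mice lay at opposite ends. There knockouts 1 to 3 lay at -8.51, -4.47 and 0.39 and controls 1 to 3 at 3.32, 3.05 and 6.22, without overlap. Klf4 read -0.555, -0.758 and -0.696 in knockouts 1 to 3 and 0.05, 0.109 and -0.145 in controls 1 to 3 on its probe with the smallest p. Of its 3 probes, 2 passed the threshold, both with lower scores in knockouts (limma adjusted p = 0.00265 and 0.046). The third, which has the highest mean, read 0.561, 0.678 and 0.309 against 0.606, 0.53 and 0.301, a difference of 0.037 (limma adjusted p = 0.944). Cd3e, Cd8b1 and Thy1 stood above the 99th percentile of the array and Cd4 near the 87th in both genotypes, whereas the Cd8a probe was dim. The summed score of 12 DP and SP4 markers was 25.53 to 25.79 in knockout and 25.9 to 27.07 in control mice, without overlap. Of its 10 tested genes 0 passed the threshold by limma, and 2, Themis (-0.239) and Dntt (-0.137), lay below 0 at an unadjusted p under 0.05 (20.0%, against 4.98% of all tested genes). The groups did not overlap, with knockouts below, for 3 of the 10 (30.0%, against 7.78%). The part of cell make-up in the differences that follow was not tested. Of the other cell types, only the myeloid list held a marker over the 90th percentile in both genotypes, Lyz2, at 1.694, 1.34 and 2.212 in knockout and 1.853, 1.525 and 2.249 in control mice. The summed scores were -1.88 to 0.12 in knockout and -0.98 to -0.23 in control mice for 7 myeloid markers, and at or below -1.12 in every mouse for B cell, erythroid and stromal markers.

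The tested mitochondrial ribosomal genes had high scores among all probes of the array, and their median level per mouse did not part the genotypes. The median score of the 71 tested genes was 1.496, 1.528 and 1.466 in knockouts 1 to 3 and 1.512, 1.581 and 1.439 in controls 1 to 3. These medians lay between the 88.5th and the 90th percentile of all probes of each array. That ranking includes dim probes, whereas each member was read from its probe with the highest mean, after the dim filter. The like percentile of all tested genes was not computed. The highest and the lowest mouse, control 2 and control 3, were both controls, and all 3 knockout mice lay between them.

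Set against each gene's own mean over the arrays, the median deviation of the members was -0.03, 0.012 and 0.014 in knockouts 1 to 3 and 0.024, 0.044 and -0.044 in controls 1 to 3. Over all tested genes the same medians stayed between -0.004 and 0.003, but quantile normalisation, which gives all arrays the same distribution, holds them near 0. With the deposited scores they ran from -0.007 in knockout 2 to 0.012 in control 3, where the members had 0.004 and -0.041. After normalisation, control 3 held the lowest of the 6 values for 31 genes and knockout 1 for 23, together 54 of 71 (76.1%), against 40.9% of all tested genes. With the deposited scores the count was 56 and with median centring 53. Within the controls alone, control 3 was the lowest for 54 of 71 members (76.1%, against 37.5% of all tested genes) and control 2 the highest for 40 (56.3%, against 33.2%). Within the knockouts, knockout 1 was the lowest for 44 (62.0%, against 36.5%).

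Both subunits showed this order. Control 3 was the lowest control for 32 of 43 large-subunit genes (74.4%) and 22 of 28 small-subunit genes (78.6%), and knockout 1 the lowest knockout for 26 (60.5%) and 18 (64.3%). The median deviations of large-subunit genes were -0.031, 0.023 and 0.014 in knockouts and 0.013, 0.044 and -0.049 in controls. Those of small-subunit genes were -0.024, 0.001 and 0.009 in knockouts and 0.026, 0.045 and -0.036 in controls. The 2 low mice are the same 2 that stood apart on the second principal component and had the lowest array weights. Before normalisation control 3 also had an upper quartile of 0.517 against 0.436 to 0.477 in the other mice. The part of these array differences in the members' order was not tested. These shares are a description of 6 arrays, whose probes share RNA and hybridisation.

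**Figure D1:**
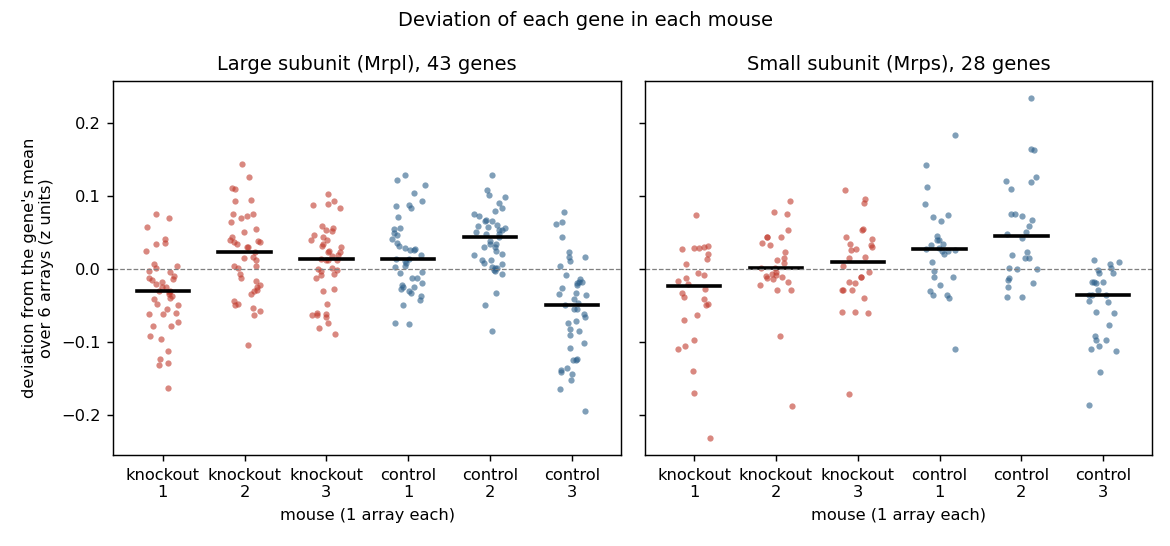
Each point is 1 tested gene, placed by the deviation of its score in that mouse from its own mean over 6 arrays (y axis, z units), and black bars are medians. In both panels knockout 1 and control 3 have medians below 0, and control 2 the highest, at 0.044 for large-subunit and 0.045 for small-subunit genes.

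Between the genotypes, no mitochondrial ribosomal gene passed the threshold (adjusted p under 0.05, limma with Benjamini-Hochberg adjustment over all 15418 probes). The count was 0 of 71 in either direction, where 0% of all tested probes were called higher and 0.013% lower, and both of the probes called lower were those of Klf4. The smallest adjusted p among members was 0.442. At an unadjusted p under 0.05, 1 member lay above 0 (1.41%, against 3.87% of all tested genes) and 5 below (7.04%, against 4.98%). The knockout and control values did not overlap for 3 members with the knockouts above (4.23%, against 6.39%) and 5 with the knockouts below (7.04%, against 7.78%). Each of these shares lies near its background.

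Of the 71 differences (knockout minus control), 34 were above 0 and 37 below, and 47.9% above 0 compares with 48.1% of 10399 tested genes. The median difference was -0.003 z units for the members and -0.003 for all tested genes. The SD between mice of a genotype was of the usual size too, with a median of 0.0611 for members and 0.0596 for all tested genes. Differences ran from -0.192 (Mrps23) to 0.137 (Mrpl2). Size over 0.1 was reached by 8 of 71 members, against 14.1% of all tested genes, and size over 0.2 by 0 of 71, against 1.33%.

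The 95% confidence intervals give the shifts that 3 mice a genotype leave possible. Their median half-width was 0.116 z units. For 60 of 71 genes (84.5%) the whole interval lay within 0.2 z units of 0, and for 69 (97.2%) within 0.3. No interval lay within 0.1, so a difference of that size was not excluded for any gene in at least 1 direction. These intervals are not adjusted for the number of probes, and the adjusted threshold asked for larger differences. A Klf4 probe with a difference of -0.376 (SE 0.052) passed it narrowly (limma adjusted p = 0.046). The widest bounds over all members were -0.361 (Mrps23) and 0.28 (Mrpl2).

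**Figure D2:**
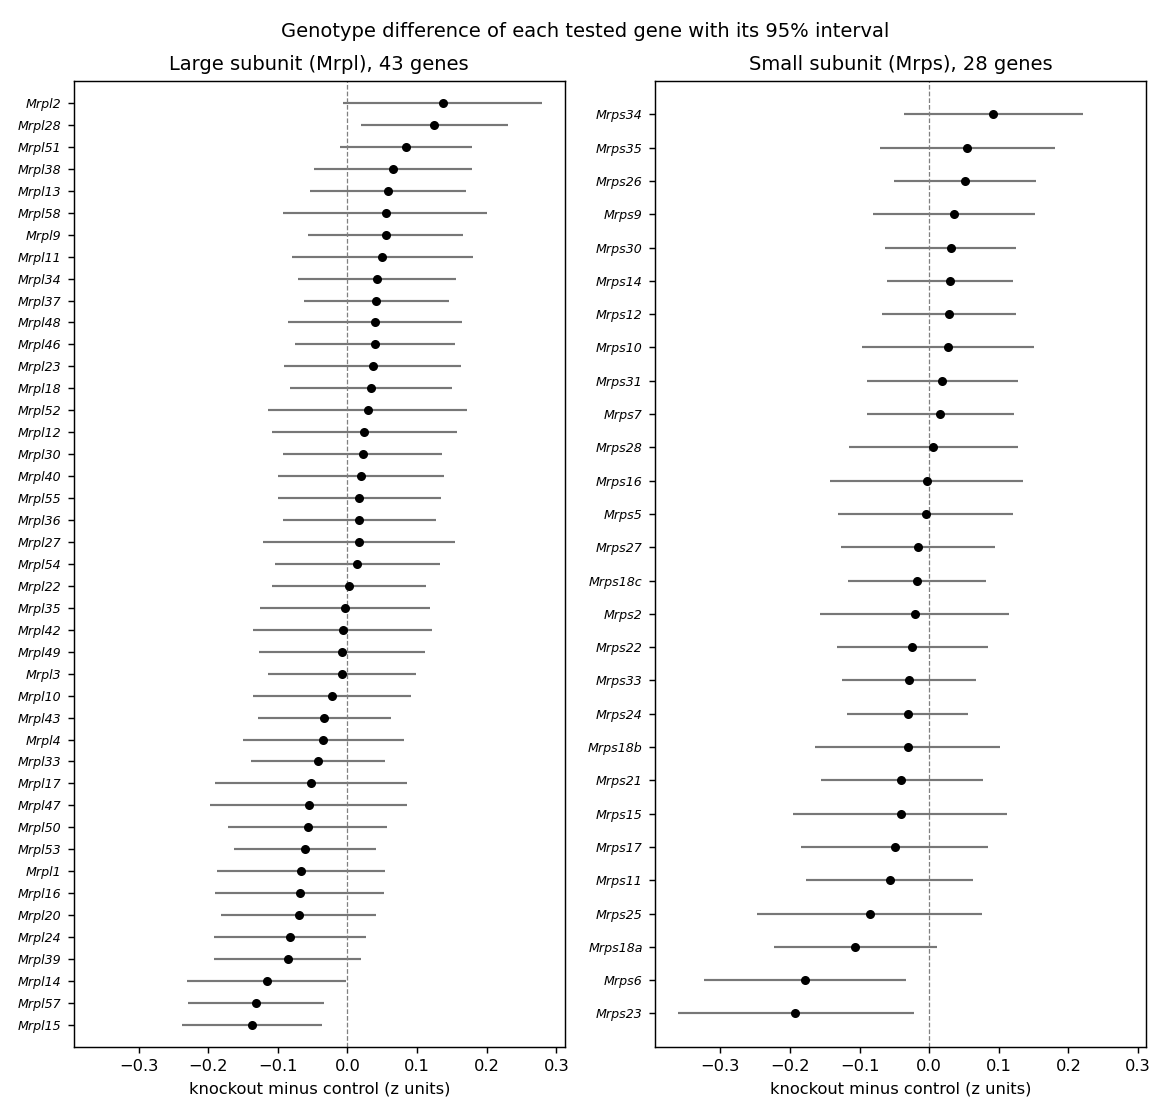
Points are the knockout minus control differences (x axis, z units) of the 43 large-subunit and 28 small-subunit genes tested, in order of size, and bars are 95% confidence intervals from limma, 3 mice a genotype. Differences spread on both sides of 0, from -0.192 to 0.137, and no gene passed the adjusted threshold.

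In the large subunit, 23 of 43 genes lay above 0 and 20 below, with a median of 0.014 z units. The 27 tested genes with bacterial homologues had a median of 0.002 (14 above, 13 below) and the 18 tested mitochondria-specific ones 0.017 (10 above, 8 below). The latter include Mrps18a and Mrps30, whose proteins sit in the large subunit of mammalian structures despite their names.

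Mrpl28, a protein with a bacterial homologue, had the smallest p of the members above 0. It read 2.299, 2.299 and 2.264 in knockouts 1 to 3 and 2.176, 2.226 and 2.087 in controls 1 to 3. All knockout values lay above all control values. The means were 2.29 ± 0.0205 and 2.16 ± 0.0703 (SD, n = 3), a difference of 0.125 (SE 0.0487, limma adjusted p = 0.488).

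Mrpl2 encodes a core protein near the peptidyl transferase centre, where peptide bonds form. Its scores were 1.341, 1.526 and 1.484 in knockouts and 1.36, 1.393 and 1.187 in controls, with knockout 1 below 2 of the controls. The difference of 0.137 (SE 0.0663, limma adjusted p = 0.584) was the highest of all members, and it came to 0.073 without control 3 and 0.192 without knockout 1.

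Mrpl51 and Mrpl38, both mitochondria-specific, were the other tested members with all knockouts above all controls. Mrpl51 read -0.427, -0.351 and -0.313 in knockouts and -0.437, -0.455 and -0.453 in controls, a difference of 0.084 (limma adjusted p = 0.615), while its other tested probe differed by 0.005. A dim probe of Mrpl51, left out by the filter, went the other way. In a fit on all probes it differed by -0.091, with means of -0.677 in knockouts and -0.586 in controls. There all knockouts lay below all controls, so the probes of Mrpl51 disagree. Mrpl38 read 1.645, 1.796 and 1.667 against 1.633, 1.637 and 1.644, so that knockout 1 cleared the highest control by very little, and its difference of 0.065 came to 0.019 without knockout 2. Mrpl13, Mrpl9 and Mrpl58 had differences of 0.058, 0.055 and 0.055, with overlapping groups, and Mrpl13 came to 0.011 without control 3. The other tested probe of Mrpl13 differed by -0.027. Mrpl58, also called ICT1, is a peptidyl-tRNA hydrolase that became part of the large subunit, and its difference ran from -0.038 to 0.109 over the alternatives.

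Mrpl15 had the smallest p among the tested members. Its scores were -0.491, -0.358 and -0.433 in knockouts and -0.272, -0.302 and -0.298 in controls, with no overlap. Both means, -0.428 ± 0.0668 and -0.291 ± 0.0167 (SD, n = 3), lay above the dim cut of -0.602, and the difference was -0.137 (SE 0.0466, limma adjusted p = 0.442). These are weak scores all the same, at the 53.7th percentile of all probes in knockouts and the 59.7th in controls. Mrpl57, a small mitochondria-specific protein, read -0.525, -0.454 and -0.405 against -0.34, -0.298 and -0.353. The knockouts again lay wholly below the controls, by -0.131 (SE 0.0455, limma adjusted p = 0.452). Mrpl57 was weak too, at the 51.6th and 58.4th percentile, and a filter at the 60th percentile left out both genes.

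Mrpl14, which sits at the interface of the subunits, read 1.226, 1.284 and 1.27 in knockouts and 1.439, 1.391 and 1.299 in controls. The groups did not overlap, and the difference was -0.116 (SE 0.0532, limma adjusted p = 0.561). Mrpl39, Mrpl24 and Mrpl20 followed with differences of -0.086, -0.082 and -0.07 and overlapping groups. Mrpl12, the protein of the stalk that recruits translation factors, read 1.669, 1.734 and 1.685 against 1.71, 1.773 and 1.531, and differed by 0.024 (limma adjusted p = 0.944). Control 3 was its lowest mouse, as for most members.

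In the small subunit, 11 of 28 genes lay above 0 and 17 below, with a median of -0.016 z units. The 16 genes with bacterial homologues had a median of -0.011 (6 above, 10 below) and the 10 mitochondria-specific ones -0.02 (4 above, 6 below). The median score of the small-subunit genes was 1.447, 1.406 and 1.348 in knockouts 1 to 3 and 1.537, 1.58 and 1.41 in controls 1 to 3, with knockout 1 above control 3. Neither subunit's shift was tested as a whole.

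Mrps23, a mitochondria-specific protein, had the largest difference in size and the widest range over the arrays, 0.423. It read 1.547, 1.285 and 1.302 in knockouts and 1.563, 1.708 and 1.439 in controls. Knockout 1 lay among the controls, unlike the other knockouts. The means were 1.38 ± 0.146 and 1.57 ± 0.135 (SD, n = 3), a difference of -0.192 (SE 0.0785, limma adjusted p = 0.501), and it was -0.123 without control 2 and -0.344 with knockout 1 and control 3 both left out (limma adjusted p = 0.0684), a choice made after seeing the data.

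Mrps6, a bacterial-type protein, read 1.11, 1.335 and 1.313 in knockouts and 1.454, 1.504 and 1.337 in controls. The groups did not overlap, but knockout 2 and control 3 were only 1.335 and 1.337. The difference was -0.179 (SE 0.0673, limma adjusted p = 0.472), and leaving out 1 mouse at a time gave -0.227 to -0.108. Mrps25, the third of the genes with the widest range, spread over 0.354 from -0.16 in knockout 1 to 0.194 in control 1. Its groups overlapped, and its 3 probes differed by -0.099 to -0.035. The difference of -0.085 was -0.021 without knockout 1, -0.015 without control 1 and -0.154 without control 3.

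Among small-subunit genes above 0, Mrps34 had the smallest p. It read 2.165, 2.216 and 2.17 in knockouts and 2.127, 2.196 and 1.951 in controls, a difference of 0.092 (SE 0.0596, limma adjusted p = 0.686). Control 3 was the lowest mouse, control 2 lay within the knockouts, and without control 3 the difference was 0.023. Mrps35, Mrps26, Mrps9 and Mrps14 had differences of 0.054, 0.051, 0.036 and 0.03, and Mrps35 came to 0.013 without control 3. Mrps12, a protein of the decoding centre, had the narrowest range of all members, with 2.003, 1.962 and 2.003 in knockouts and 1.964, 1.962 and 1.957 in controls. Mrps11 and Mrps17 lay below 0 by -0.057 and -0.049, with overlapping groups.

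The 3 paralogs related to bacterial S18 take different places on the ribosome. Mrps18a, found in the large subunit, read 1.038, 0.955 and 0.988 in knockouts and 1.071, 1.173 and 1.056 in controls. Its groups did not overlap, and it differed by -0.106 (SE 0.0541, limma adjusted p = 0.603). Mrps18b read 1.013, 1.062 and 1.044 against 1.094, 1.174 and 0.943, and Mrps18c 2.141, 2.081 and 2.081 against 2.155, 2.108 and 2.091. Their differences were -0.031 and -0.017 (limma adjusted p = 0.926 and 0.949), both with overlapping groups. Mrps30, the other large-subunit protein with a small-subunit name, read 2.536, 2.493 and 2.541 against 2.532, 2.483 and 2.462, a difference of 0.031 (limma adjusted p = 0.876).

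**Figure D3:**
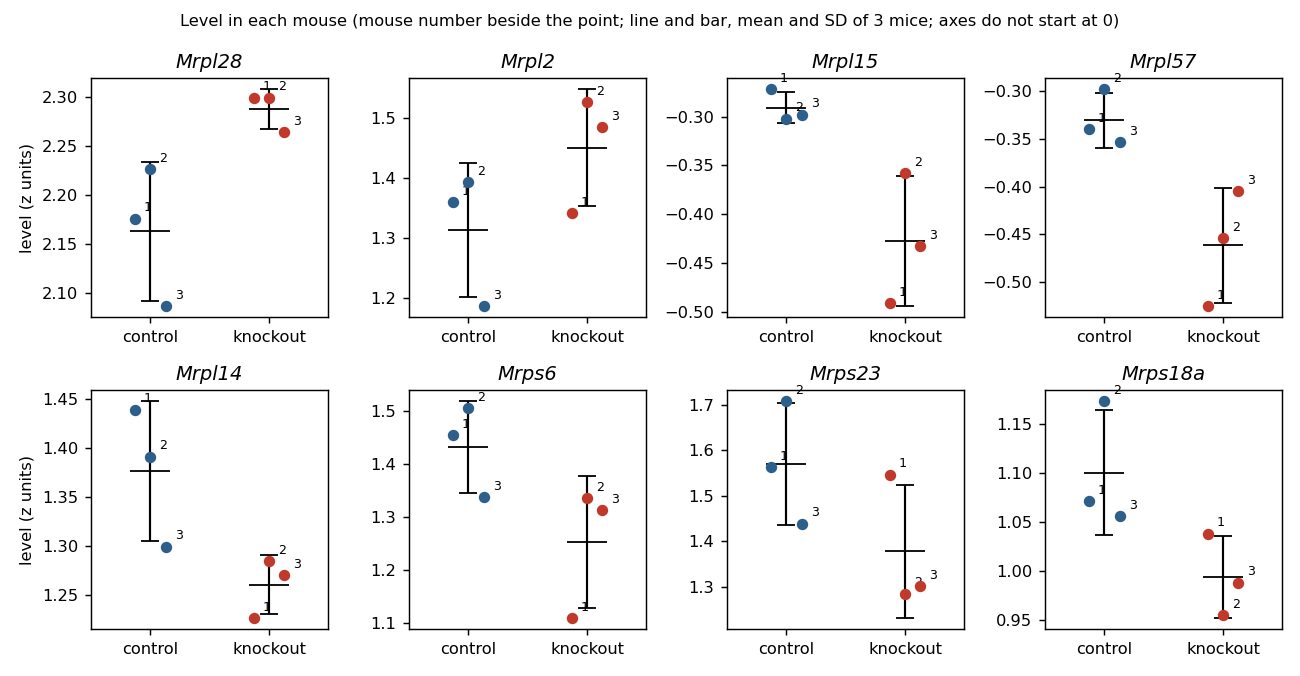
Scores of 8 genes in each mouse (y axis, z units, a scale per gene that does not start at 0), with the mean and SD of 3 mice a genotype. The groups do not overlap for Mrpl28 (knockouts above) or for Mrpl15, Mrpl57, Mrpl14, Mrps6 and Mrps18a (knockouts below), and overlap for Mrpl2 and Mrps23.

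For 21 genes at least 2 probes were tested, which gives a second reading of the same mice. The probes of a gene had differences of the same sign for 8 genes and of opposite sign for 13. The median gap between the highest and lowest probe of a gene was 0.064 z units. Mrps18b (-0.036 and -0.031), Mrps26 (0.051 and 0.089) and Mrps25 were among those with probes on the same side.

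Mrps7, a protein of the small subunit's head, had the largest gap, 0.184. Its brighter probe read 1.631, 1.64 and 1.684 in knockouts and 1.677, 1.645 and 1.585 in controls, a difference of 0.016 (limma adjusted p = 0.956). The other probe read 0.387, 0.507 and 0.449 against 0.68, 0.595 and 0.573. There all knockouts lay below all controls, by -0.168 (limma adjusted p = 0.44), so the 2 probes of Mrps7 disagree. Probe gaps for Mrps31 (0.099), Mrps11 (0.097), Mrpl43 and Mrpl49 (0.096 each) also spanned 0.

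**Figure D4:**
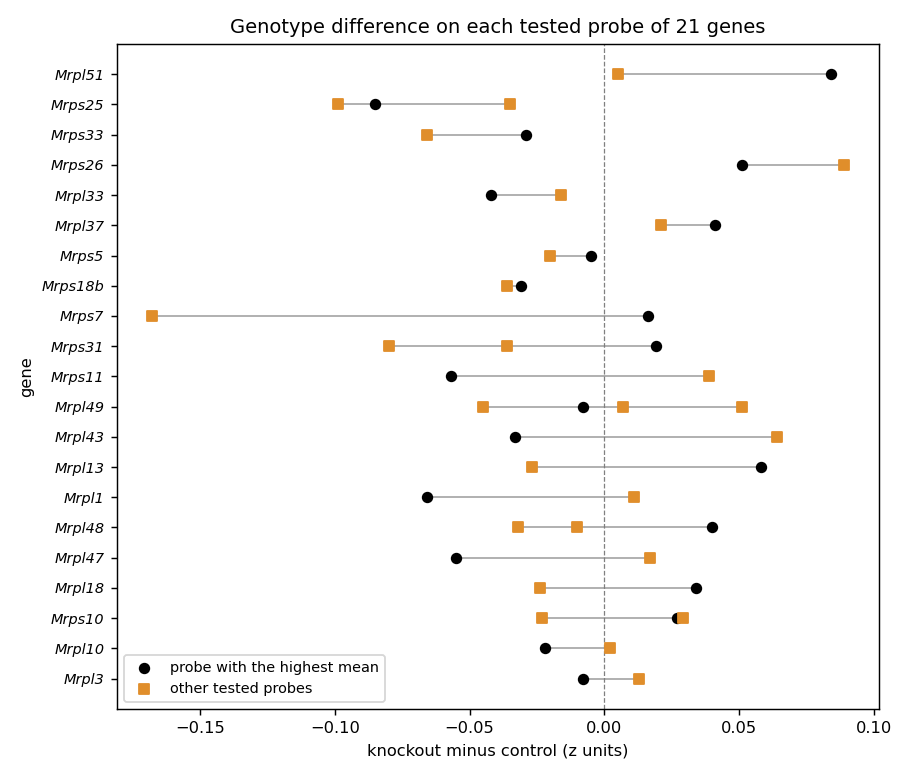
Knockout minus control difference (x axis, z units) on each tested probe of the 21 genes with at least 2, black for the probe with the highest mean and orange for the others, joined by a line. Lines cross 0 for 13 of 21 genes, and the longest is that of Mrps7, from -0.168 to 0.016.

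The 5 members whose chosen probe was dim were Mrpl19, Mrpl21, Mrpl32, Mrpl45 and Mrps36. In a fit on all probes they differed by 0.02, 0.079, -0.043, -0.047 and -0.052. Mrpl21 read -0.759, -0.752 and -0.694 in knockouts and -0.845, -0.795 and -0.801 in controls, without overlap (limma adjusted p = 0.657). Mrps36 is a protein now placed in the 2-oxoglutarate dehydrogenase complex rather than on the ribosome. At such signals a difference in z units cannot be read as a change of the transcript.

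Other genes of mitochondrial translation were read from lists, and in each list 0 genes passed the threshold by limma. Each gene was read from its probe with the highest mean only. Further tested probes, which Dap3, Gatb, Mtrf1 and Rbfa had among others, were not compared. At an unadjusted p under 0.05, 1 of 3 subunits without an Mrp symbol (Chchd1, 33.3%) and 1 of 11 translation factors (Gfm2, 9.09%) lay below 0, against 4.98% of all tested genes. Above 0 lay 2 of 21 assembly genes (Rbfa and Mpv17l2, 9.52%, against 3.87%). Of the subunits without an Mrp symbol, 3 were tested and all lay below 0, with a median of -0.095. Chchd1, a small-subunit protein, read 2.709, 2.771 and 2.744 in knockouts and 2.875, 2.877 and 2.79 in controls, without overlap, and differed by -0.106 (SE 0.0439, limma adjusted p = 0.502). Ptcd3 and Dap3, also of the small subunit, differed by -0.095 and -0.04 with overlapping groups.

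Of 11 tested translation factors, 4 lay above 0 and 7 below, with a median of -0.048. The summed score of the 12 on the array was 1.56 to 1.87 in knockouts and 2.1 to 2.45 in controls, without overlap, and this sum was not tested. Gfm2, which helps to recycle ribosomes after termination, read 0.06, 0.166 and 0.199 against 0.268, 0.399 and 0.311, a difference of -0.185 (SE 0.0589, limma adjusted p = 0.415). Tufm, the elongation factor that brings aminoacyl-tRNAs, read 1.979, 2.041 and 1.995 against 2.116, 2.081 and 2.05, a difference of -0.078 (limma adjusted p = 0.661). The groups did not overlap for 3 of the 11 factors, all with knockouts below (27.3%, against 7.78% of all tested genes): Gfm2, Tufm and Mtrf1, a release factor family member, at -0.062.

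The aminoacyl-tRNA synthetases and tRNA amidotransferase subunits, which charge mitochondrial tRNAs, lay mostly on the other side. Of 17 tested, 12 lay above 0, and the median was 0.049. In 5 of the 17 (29.4%, against 6.39% of all tested genes) all knockouts lay above all controls. At an unadjusted p under 0.05, 0 of the 17 lay above 0, against 3.87% of all tested genes, and 0 below, against 4.98%. Vars2, Sars2 and Gatb differed by 0.11, 0.107 and 0.099 (limma adjusted p = 0.599, 0.638 and 0.593). The summed score of 19 such genes was 11.59 to 12.18 in knockouts and 10.92 to 11.59 in controls, so the groups met at 11.59 (knockout 3 and control 1). No gene of this list was called, and the list as a whole was not tested.

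Among 21 tested genes of ribosome assembly and rRNA modification, 7 lay above 0 and 14 below, with a median of -0.02. Rbfa, which binds the maturing small subunit, read 2.173, 2.216 and 2.263 in knockouts and 2.139, 2.09 and 2.039 in controls, a difference of 0.128 without overlap (limma adjusted p = 0.472). Mpv17l2, an assembly protein, differed by 0.12 without overlap (limma adjusted p = 0.536). Mitochondrial transcription and mRNA stability genes had 5 of 14 above 0 and a median of -0.019. Mterf1a, Mtpap and Fastkd5 had the smallest p, with differences of -0.093, 0.09 and -0.099 (limma adjusted p = 0.644, 0.661 and 0.677). The groups did not overlap for 1 gene with knockouts above (7.14%, against 6.39% of all tested genes) and 1 with knockouts below (7.14%, against 7.78%). These were Tfam, the mitochondrial DNA packaging factor, at 0.025, and Mterf1a. Of the transcriptional regulators, 1 of 7 lay above 0, the coactivator Ppargc1b at 0.071, with all knockouts above all controls (limma adjusted p = 0.719). Sp1 had the largest difference in size of these regulators, -0.075 (limma adjusted p = 0.701), with overlapping groups. Nrf1, Gabpa, Gabpb1, Esrra and Myc differed by -0.01, -0.029, -0.022, -0.037 and -0.015, also with overlapping groups, and the Yy1 probe was dim.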

How the data were processed

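Total RNA of 6 separate mice, as the series' design states, was hybridised to 6 arrays, 1 per mouse, in 2 groups taken from the labels. The authors deposited scores, which the values show to be standardised within each array (mean 0, SD 1). The submitters' processing notes name GenomeStudio 2010.1 without saying what it did, and background correction is not given in the sources used here. Detection p-values were not used, so dim means a low mean score only. The deposited table held 0 columns of other samples.

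Because array quartiles differed by 6.93% of the interquartile range, over a limit of 5%, scores were quantile normalised. Probes with a mean under the 40th percentile were left out. A two-sided test of each difference was run in R 4.3.3 with limma 3.58.1 (lmFit, eBayes with trend, no covariate) and Benjamini-Hochberg adjustment over 15418 probes and a threshold of 0.05. The plan for this test assumed log-like values, and z scores took their place. It was tested on simulated data. Those data had independent noise per array and shifts larger than any member's difference, so they do not show which smaller shifts the test finds. SEs and intervals are limma's, and 3 arrays a genotype limit the precision. The SD is that of 3 mice.

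Names came from GEO's platform annotation: 23978 probes had 1 symbol, 0 several and 1719 none, and all 76 member symbols were the same in RefSeq. Mrpl41 and Mrpl44 were not analysed here. The members, the lists, the motifs and the rule for named genes were chosen with earlier results of these data known. That rule took, per subunit, the 6 genes of smallest p on each side of 0, genes whose probes differ in sign, the S18 paralogs, Mrps30, Mrpl12, Mrps12, the 3 widest ranges and up to 3 genes per other list. Mrps31 and others named for a probe gap follow from it. Mrpl58, Mrpl33, Mrps27, the dim members, Mtrf1, the other genes of mitochondrial regulation and the marker genes were named outside it, after their values were seen. Alternatives changed the normalisation, the dim filter, the variance model, array weights, the replicate block, the probe per gene, the subunit of 2 genes and the mice included. Same-numbered mice of the 2 groups correlated in their deviations at -0.034, 0.167 and 0.035, so the numbers were not taken to pair them. The labels and the file used give no hybridisation or scan batch.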

Additional observations from a re-analysis of the deposited data

How the results depend on the processing

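The count of members passing the threshold was 0 in each direction under every alternative run, and the smallest adjusted p of a member (limma) ranged from 0.0684 to 0.75. The number of all probes called, 2 in the fit reported, was 0 with a filter at the 60th percentile, 1 without a variance trend, 4 with the replicate block, 1 to 4 with 1 mouse left out (4 without knockout 1, 3 without control 3) and 19 with knockout 1 and control 3 both left out, an alternative chosen after seeing the data. With the mean of all tested probes of a gene, 0 of 10399 genes were called, Klf4 included. The cause of these shifts was not tested. The replicate block changed no call among members. With 1 mouse left out the median difference ranged from -0.02 to 0.035 for large-subunit and from -0.039 to 0.02 for small-subunit genes, so neither median has a settled sign. Of 71 members, 37 kept the sign of their difference under all alternatives and 34 did not. Among named genes whose sign turned, the differences with 1 mouse left out ran from -0.083 to 0.01 for Mrps17, -0.057 to 0.021 for Mrpl10, -0.114 to 0.013 for Mrpl47, -0.038 to 0.03 for Mrpl49, -0.037 to 0.017 for Mrpl3, -0.015 to 0.068 for Mrps10, -0.038 to 0.001 for Mrps18c, -0.095 to 0.021 for Mrps18b, -0.008 to 0.061 for Mrps9, -0.047 to 0.074 for Mrpl12, -0.018 to 0.072 for Mrpl48 and -0.009 to 0.037 for Mrps7. The sign also turned for Mrpl58 and Mrps27, which ran from -0.038 to 0.109 and from -0.041 to 0.004 over all alternatives. With knockout 1 and control 3 left out they were -0.003 for Mrps9, -0.032 for Mrpl12, 0.005 for Mrpl10, 0.007 for Mrpl3 and -0.009 for Mrpl48. Signal over background could not be judged without detection p-values.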
